A study of Mus musculus with 9 samples.

Results

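Of 53647 genes in the count table, 10 make up the set described here: the transcriptional coactivators Yap1 and Wwtr1 (the gene of TAZ), their DNA-binding partner Tead1, and 7 genes reported as targets of the YAP/TAZ and TEAD complex, namely Lats2, Amotl2, Ajuba, Ccn1, Ccn2, Ankrd1 and Axl. They were picked by symbol from a list made for this pathway with earlier results of these data known, and all 10 had enough reads to be tested. The values come from bulk poly(A) RNA sequencing of Hepa 1-6, a mouse hepatoma line. The 3 Usp5 knockout samples came from cells edited with a pLentiCRISPR guide construct, the 3 Ythdf1 knockout samples from cells edited with CRISPR/Cas9/EGFP plasmids, and the 3 control samples from cells with a control guide. Usp5 encodes a deubiquitinase and Ythdf1 a reader of N6-methyladenosine in mRNA, and the study asked which genes respond alike to the loss of either. Knockout cells were single cell clones picked by dilution and checked by immunoblot. The labels do not say whether the samples of a group are separate clones or cultures, nor whether the control was cloned. The spread behind each p-value is that of these samples alone and could be technical, and clone, delivery and genotype cannot be told apart.

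YAP and TAZ have no DNA-binding domain of their own and reach their target genes by binding TEAD proteins. The Hippo kinases MST and LATS phosphorylate YAP and TAZ, which keeps them in the cytoplasm or sends them for degradation, so that most of their regulation is on the protein and not on its mRNA. Several targets, such as Lats2 and Amotl2, encode inhibitors of the coactivators and close a feedback loop, while Ccn1 and Ccn2 are the targets most often read as a measure of YAP/TAZ activity. In liver the pathway is known for its control of organ size and for its high activity in bile duct cells and liver tumours.

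Promoter sequence is shown for 4 members whose RNA levels differ in their pattern across the knockouts. All 4 carry the core TEAD motif, GGAATG, on 1 strand or the other. So do all 8 members with a window, and the motif does not set these 4 apart. Each window holds 250 bases before and 50 after a RefSeq transcription start on GRCm38.p6, read 5′ to 3′ along the gene's strand, with the motif in capitals (CATTCC where it lies on the opposite strand). The windows are chr3:145649936-145650235 for Ccn1, chr19:36119795-36120094 for Ankrd1, chr14:54577612-54577911 for Ajuba and chr7:25788684-25788983 for Axl, all on the minus strand.
Ccn1: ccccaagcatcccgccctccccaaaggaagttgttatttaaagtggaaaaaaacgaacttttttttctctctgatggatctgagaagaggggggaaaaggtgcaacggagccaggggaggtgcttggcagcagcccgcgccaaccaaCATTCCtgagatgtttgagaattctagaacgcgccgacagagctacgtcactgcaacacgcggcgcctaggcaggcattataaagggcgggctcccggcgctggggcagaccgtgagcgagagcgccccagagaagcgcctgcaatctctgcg
Ankrd1: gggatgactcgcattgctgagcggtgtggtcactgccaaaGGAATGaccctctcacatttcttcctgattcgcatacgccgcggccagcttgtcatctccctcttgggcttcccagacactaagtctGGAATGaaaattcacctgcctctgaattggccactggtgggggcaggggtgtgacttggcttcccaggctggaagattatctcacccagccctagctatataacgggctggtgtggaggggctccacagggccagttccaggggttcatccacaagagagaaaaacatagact
Ajuba: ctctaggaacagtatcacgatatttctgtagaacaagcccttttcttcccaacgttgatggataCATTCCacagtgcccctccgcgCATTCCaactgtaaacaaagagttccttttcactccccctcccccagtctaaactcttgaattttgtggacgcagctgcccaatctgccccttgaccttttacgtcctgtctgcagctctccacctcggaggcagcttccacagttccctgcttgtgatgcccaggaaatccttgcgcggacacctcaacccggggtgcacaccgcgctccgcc
Axl: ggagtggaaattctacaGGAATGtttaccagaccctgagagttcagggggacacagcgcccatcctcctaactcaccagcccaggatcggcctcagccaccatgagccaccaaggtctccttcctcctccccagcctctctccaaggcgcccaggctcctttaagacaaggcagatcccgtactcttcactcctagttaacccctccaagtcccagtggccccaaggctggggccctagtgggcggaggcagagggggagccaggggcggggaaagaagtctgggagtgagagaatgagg
In these windows the motif began at -103 relative to the start in Ccn1, at -210 and -123 in Ankrd1, at -186 and -164 in Ajuba and at -233 in Axl.

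RefSeq promoter windows were matched for 8 members, Tead1 and Ccn2 being the others, and gave 10 windows. GGAATG, searched on both strands, was found in 9 of these 10 windows and in all 8 members, against 14.7% of 32851 promoter windows of all genes and 16.6% of 27025 genes. The 2 windows of Wwtr1 overlap and share 1 match, and the window without the motif is the second of Lats2. Beyond the printed windows, it began at -141 in Yap1, at -136 or -170 in Wwtr1 depending on the start used, at 4 in Lats2 and at -65 in Amotl2. Ankrd1 and Ajuba each held 2 copies, which 1.36% of all windows do. Among 20 other listed YAP/TAZ targets with a window, 3 held the motif (15%). Neither the AP-1 motif TGANTCA (7.81% of all windows) nor the CArG box bound by SRF (1.63% of all windows) was found in the members' 10 windows. The 2 copies of GGAATG in Ankrd1, and the 2 in Ajuba, do not overlap each other. A match is a description of letters and not of a bound site.

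**Figure D1:**
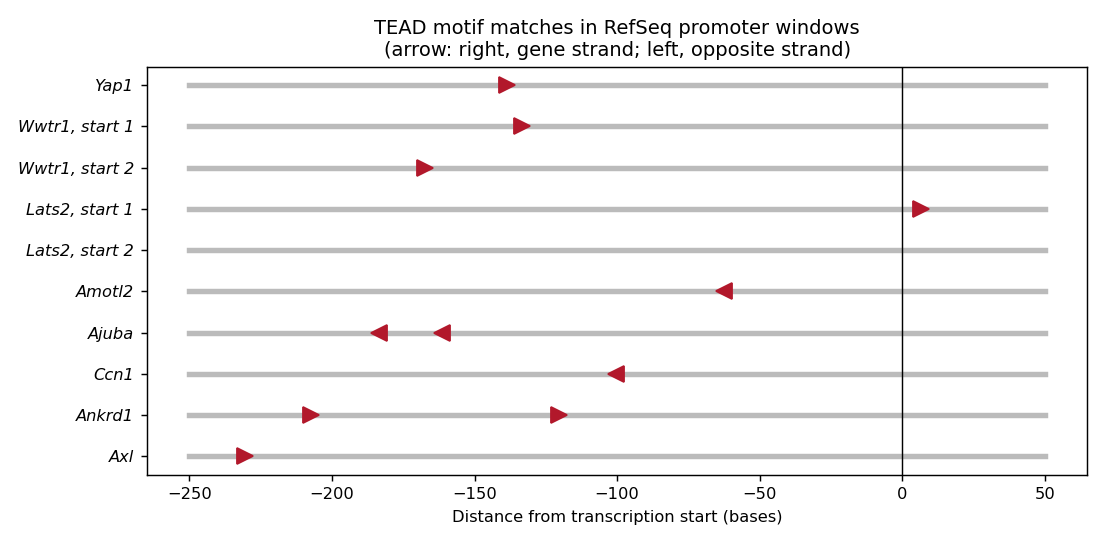
Grey lines are the 10 promoter windows of 8 genes by distance from the transcription start (horizontal axis, bases), and each red arrow is a match to the TEAD motif, pointing right on the gene's strand and left on the opposite strand. Ajuba and Ankrd1 carry 2 matches, and the second start of Lats2 carries none.

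The 9 libraries held between 24760877 and 42989715 counts, and 13661 genes were tested. Usp5 RNA was lower in Usp5 knockout than in control samples (log2 fold change -0.89, adjusted p = 0.000316) and Ythdf1 RNA was lower in Ythdf1 knockout than in control samples (-1.97, adjusted p = 1.21e-07), both by the edgeR quasi-likelihood test. Control replicate 3 stood apart from the other controls. Its counts differed from theirs with a chi-square of 112 and 129 per degree of freedom, against 13.3 between the other pair. On the same measure the pairs within Usp5 knockout lay at 55.3, 47.4 and 41.0, and those within Ythdf1 knockout at 19.0, 3.38 and 24.5. Mitochondrial transcripts took 5.91% of the counts of control replicate 3, against 2.32% and 2.33% in the other controls. These shares also moved with the groups, at 3.67%, 6.14% and 4.04% in Usp5 knockout and 3.90%, 4.96% and 3.51% in Ythdf1 knockout samples, so that control replicate 3 lies within the range of the knockouts and the other controls lie below it. The part of this in the results was not tested. The hepatocyte markers Alb, Afp and Hnf4a were abundant, with 252708, 349025 and 77916 counts over all libraries, while Apoa1, Ttr and Serpina1a held 108, 110 and 216. Endothelial markers summed to between 1.5 and 1.71 CPM (counts scaled to library size) in Usp5 knockout, 1.81 and 2.63 in Ythdf1 knockout and 1.49 and 1.58 in control samples, with Emcn at 0. Leukocyte markers summed to between 4.78 and 5.95 CPM in Usp5 knockout, 9.14 and 10.3 in Ythdf1 knockout and 6.16 and 9.82 in control samples, with Cd3e at 0, Adgre1 at 8, Ptprc at 34, Itgam at 101, Lyz2 at 333 and Cd68 at 1639 counts over all libraries. Of the stellate cell and fibroblast markers, Lrat was at 0, Acta2 and Lum held 5 counts each, Reln 14 and Pdgfrb 34. Col1a1 held 208, Des 248, Pdgfra 3248 and Dcn 316772. Of 4 tested, 1 passed an adjusted p of 0.05 in each knockout, or 25%, against 19.8% and 46.5% of all genes. Pdgfra was lower in Usp5 knockout (log2 -1.28 ± 0.11, SE, adjusted p = 2.71e-05) and Des in Ythdf1 knockout (-1.46 ± 0.27, adjusted p = 0.00149, both edgeR). In bulk RNA, fewer cells of a type and less RNA per cell cannot be told apart.

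Across the set, Ccn1 and Ccn2 were higher in both knockouts, Ankrd1 was lower in Usp5 knockout and higher in Ythdf1 knockout cells, and the coactivator genes Yap1 and Wwtr1 passed the test in neither. A gene is called changed here at a Benjamini-Hochberg adjusted p under 0.05 over all tested genes. In Usp5 knockout against control, 4 of 10 members were called, 3 higher (Lats2, Ccn1, Ccn2) and 1 lower (Ankrd1), where 19.8% of all genes were called, 9.96% higher and 9.80% lower. In Ythdf1 knockout against control, 6 of 10 were called, 4 higher (Ajuba, Ccn1, Ccn2, Ankrd1) and 2 lower (Tead1, Axl), where 46.5% of all genes were called, 23.7% higher and 22.8% lower. Between Usp5 knockout and Ythdf1 knockout, 3 of 10 were called, 1 higher (Tead1) and 2 lower (Ajuba, Ankrd1), where 48.5% of all genes were called, 23.3% higher and 25.2% lower. With 10 genes, a few genes more or fewer set these shares apart from the background, and nothing particular to the set is read from them. The 2 comparisons with control share the control samples. Without control replicate 3, the members called were 5, 6 and 5 in the same 3 comparisons. The share of all genes called without it is not given here, so nothing particular to the members is read from these counts.

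The members were close to all genes in size in Ythdf1 knockout and below them in the other comparisons. The median log2 fold change of the 10 members was 0.03 in Usp5 knockout against -0.01 over all genes, 0.16 in Ythdf1 knockout against 0.02, and 0.10 between Usp5 knockout and Ythdf1 knockout against 0.00028. In absolute size the median was 0.17 in Usp5 knockout against 0.22 over all genes, 0.39 in Ythdf1 knockout against 0.38, and 0.20 between the knockouts against 0.39. In Usp5 knockout against control the groups did not overlap in CPM for 4 members that were higher and 2 that were lower, where this held for 33.2% of all genes, 16.0% higher and 17.2% lower. In Ythdf1 knockout against control it held for 5 higher and 2 lower members, and for 57.1% of all genes, 29.5% higher and 27.6% lower. Between Usp5 knockout and Ythdf1 knockout it held for 4 higher and 4 lower members, and for 59.0% of all genes, 28.6% higher and 30.4% lower. Ccn2 is the member that lies far out: its rise ranks at the 98.6th percentile of all genes' fold changes in Usp5 knockout and at the 97.0th in Ythdf1 knockout.

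**Figure D2:**
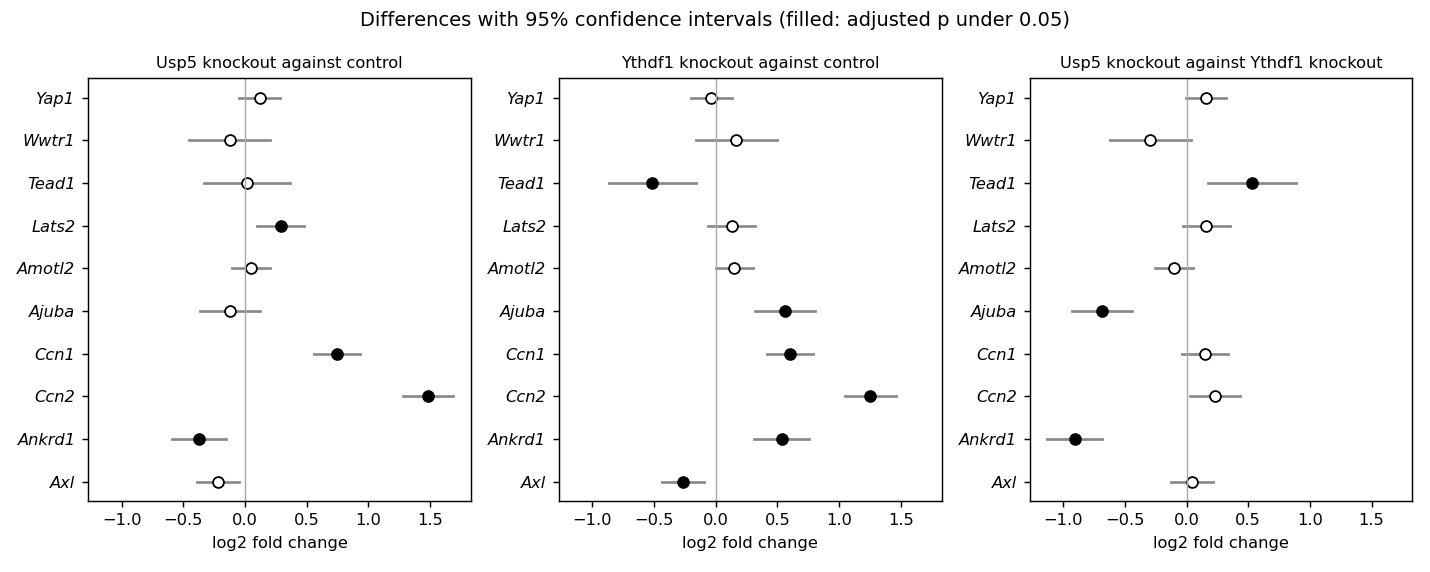
Points are log2 fold changes of the 10 genes (horizontal axis) with 95% confidence intervals as bars, for Usp5 knockout against control, Ythdf1 knockout against control and Usp5 knockout against Ythdf1 knockout from left to right, filled where the adjusted p is under 0.05. Ccn2 is farthest right in the first 2 panels (1.49 and 1.25), and Ankrd1 is farthest left in the third (-0.91).

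Yap1 (ENSMUSG00000053110), the coactivator restrained by LATS, had 201, 197 and 211 CPM in Usp5 knockout samples, 179, 176 and 190.3 CPM in Ythdf1 knockout samples and 193, 193 and 174 CPM in control samples. All Usp5 knockout samples lay above all others, and Ythdf1 knockout and control samples overlapped. The differences were small: the log2 fold change was 0.12 ± 0.07 (SE) in Usp5 knockout (adjusted p = 0.282, edgeR quasi-likelihood test), with a 95% interval of -0.04 to 0.29. In Ythdf1 knockout it was -0.04 ± 0.07 (adjusted p = 0.719, same test), with an interval of -0.20 to 0.13.

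Wwtr1 (ENSMUSG00000027803), which encodes TAZ, had 113, 126 and 128 CPM in Usp5 knockout samples, 146, 163 and 142 CPM in Ythdf1 knockout samples and 116, 114 and 171 CPM in control samples. Control replicate 3 is the highest of the 9, and without it the Ythdf1 knockout samples would lie above all the rest. The fold change passed in neither comparison with control, at -0.12 ± 0.15 (log2, SE) in Usp5 knockout (adjusted p = 0.591) and 0.17 ± 0.15 in Ythdf1 knockout (adjusted p = 0.369, both edgeR quasi-likelihood). Without control replicate 3 the Ythdf1 knockout value was 0.39 (adjusted p = 0.00467, edgeR), and with trends on GC content and length removed from each library it was 0.55 (adjusted p = 0.00154, edgeR).

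Tead1 (ENSMUSG00000055320), a TEAD family transcription factor, had 198, 261 and 232 CPM in Usp5 knockout samples, 147, 183 and 148 CPM in Ythdf1 knockout samples and 199, 200.2 and 285 CPM in control samples. All Ythdf1 knockout samples lay below all others, and Usp5 knockout and control samples overlapped. It fell in Ythdf1 knockout, by 0.52 ± 0.16 on the log2 scale (SE; adjusted p = 0.0226, edgeR quasi-likelihood), and the Usp5 knockout value was 0.02 ± 0.16 (adjusted p = 0.957). Tested directly, Tead1 was higher in Usp5 knockout than in Ythdf1 knockout, with a log2 difference of 0.53 ± 0.16 (adjusted p = 0.0192, edgeR), a call that was lost in 4 of 17 alternatives. The fall against control rests on few libraries. Without control replicate 3 it was -0.32 (adjusted p = 0.0577, edgeR), without Ythdf1 knockout replicate 1 or 3 it was -0.49 (adjusted p = 0.0687 and 0.0671), and with GC and length trends removed it was -0.17 (adjusted p = 0.261).

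Among its paralogs, which bind the same motif, Tead1 was not the most abundant. Levels per length are given in TPM (counts divided by gene length and scaled to the library). TPM have no TMM scaling and are compared here between genes, while groups are compared by the fold changes. Tead2 averaged 141 ± 5.64 TPM in Usp5 knockout, 135 ± 8.89 in Ythdf1 knockout and 123 ± 6.87 in control samples (SD, n = 3 each). Tead1 averaged 50.4 ± 7.40 TPM in Usp5 knockout, 31.5 ± 4.52 in Ythdf1 knockout and 53.7 ± 8.97 in control samples. Tead4 was of the same order, at 51.6 ± 1.66 TPM in Usp5 knockout, 32.6 ± 1.14 in Ythdf1 knockout and 39.6 ± 1.04 in control samples, and Tead3 was lowest, at 21.1 ± 0.714, 20.3 ± 2.47 and 16.9 ± 1.93 TPM in Usp5 knockout, Ythdf1 knockout and control samples. Tead1 thus held 19.0% ± 2.6 of the family's TPM in Usp5 knockout, 14.4% ± 2.14 in Ythdf1 knockout and 22.9% ± 2.79 in control samples. The paralogs did not share its pattern in Ythdf1 knockout, where Tead2 rose by 0.39 ± 0.10 (log2, SE; adjusted p = 0.00903, edgeR) and Tead3 by 0.52 ± 0.12 (adjusted p = 0.00449), while Tead4 was at -0.02 ± 0.08 (adjusted p = 0.887). In Usp5 knockout Tead4 rose by 0.50 ± 0.08 (adjusted p = 0.00145, edgeR) and Tead3 by 0.44 ± 0.12 (adjusted p = 0.0258), and Tead2 was at 0.31 ± 0.10 (adjusted p = 0.0507). Vgll4, which encodes a competitor of YAP for TEAD, rose in Usp5 knockout by 0.52 ± 0.11 (adjusted p = 0.00747, edgeR) and was at 0.27 ± 0.11 in Ythdf1 knockout (adjusted p = 0.064). Its relatives Vgll1, Vgll2 and Vgll3 held 0, 3 and 2 counts over all 9 libraries. Of the 4 tested genes of this list, 3 were higher in Usp5 knockout and 2 in Ythdf1 knockout, or 75% and 50%, against 19.8% and 46.5% of all genes called in either direction. With GC and length trends removed, the counts were 4 in Usp5 knockout and 0 in Ythdf1 knockout.

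**Figure D3:**
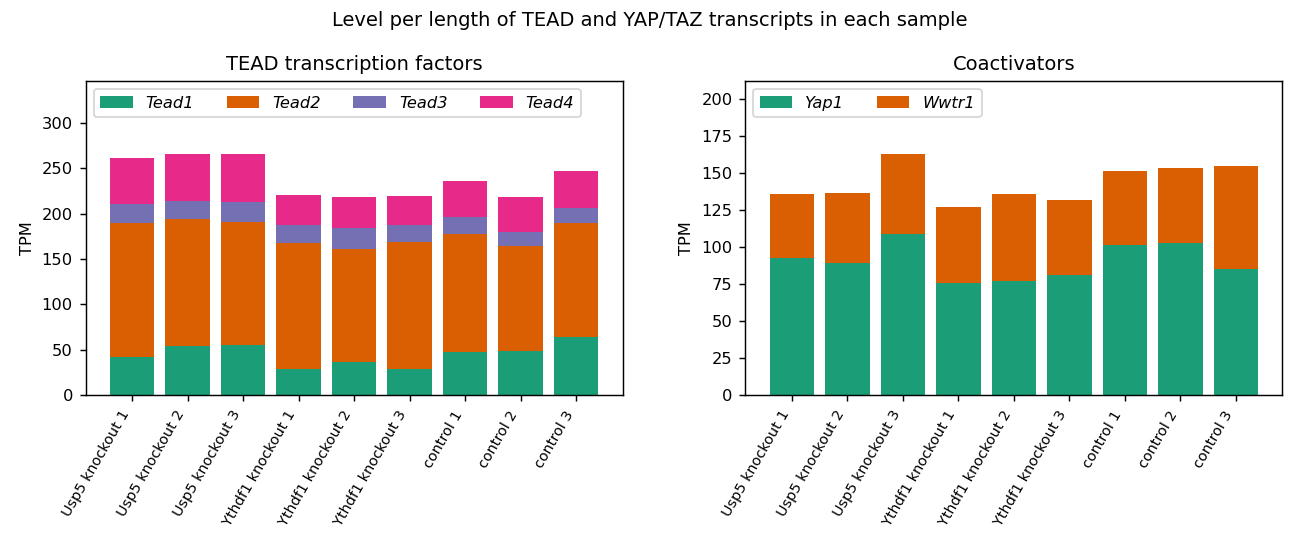
Stacked bars give the level per length (TPM, vertical axis from 0) of the TEAD genes on the left and of Yap1 and Wwtr1 on the right in each of 9 samples, with Usp5 knockout first, then Ythdf1 knockout and control. Tead2 is the largest part of every TEAD bar, and the Tead1 part is smallest in the Ythdf1 knockout samples.

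The inhibitors come next. Lats2 (ENSMUSG00000021959), a kinase that phosphorylates YAP and TAZ, had 75.9, 85.0 and 88.6 CPM in Usp5 knockout samples, 70.5, 80.5 and 72.3 CPM in Ythdf1 knockout samples and 65.5, 66.6 and 71.8 CPM in control samples. All Usp5 knockout samples lay above the controls, and the Ythdf1 knockout samples overlapped both. It rose in Usp5 knockout by 0.29 ± 0.09 (log2, SE; adjusted p = 0.0376, edgeR quasi-likelihood), close to the threshold: in 9 of 17 alternative settings it no longer passed, with adjusted p between 0.0171 and 0.131 over all 17 alternatives. In Ythdf1 knockout it was at 0.13 ± 0.09 (adjusted p = 0.233, edgeR). Per length, Lats2 took 58.7% ± 1.49 of the TPM of both LATS kinases in Usp5 knockout, 61.6% ± 1.04 in Ythdf1 knockout and 53.1% ± 4.23 in control samples (SD, n = 3 each).

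Amotl2 (ENSMUSG00000032531), a junctional protein that holds YAP at the membrane, varied little. It had 234, 247 and 237 CPM in Usp5 knockout samples, 256, 252 and 262 CPM in Ythdf1 knockout samples and 241, 225 and 227 CPM in control samples. Every Ythdf1 knockout sample lay above every other sample. Its fold change passed in neither comparison, at 0.05 ± 0.07 (log2, SE) in Usp5 knockout (adjusted p = 0.644) and 0.15 ± 0.07 in Ythdf1 knockout (adjusted p = 0.0957, both edgeR quasi-likelihood). It was the main angiomotin gene, with 85.7% ± 0.286 of the family's TPM in Usp5 knockout, 87.6% ± 0.868 in Ythdf1 knockout and 86.3% ± 1.08 in control samples.

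Ajuba (ENSMUSG00000022178), a LIM protein that binds and inhibits LATS, had 149.7, 128 and 141 CPM in Usp5 knockout samples, 230.4, 209 and 234 CPM in Ythdf1 knockout samples and 172, 154 and 129 CPM in control samples. The Ythdf1 knockout samples stand clear of all others, and Usp5 knockout and control samples overlap. It rose in Ythdf1 knockout by 0.56 ± 0.11 (log2, SE; adjusted p = 0.00221, edgeR quasi-likelihood), to 1.48-fold, and held in all 17 alternatives. In Usp5 knockout it was at -0.12 ± 0.11 (adjusted p = 0.474), and between Usp5 knockout and Ythdf1 knockout the difference was -0.68 ± 0.11 (adjusted p = 0.000665, edgeR). Its share of the TPM of Ajuba, Limd1 and Wtip was 69.8% ± 0.566 in Usp5 knockout, 77.8% ± 0.346 in Ythdf1 knockout and 67.7% ± 2.81 in control samples.

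Of the targets with other roles, the secreted matricellular proteins changed most. Ccn2 (ENSMUSG00000019997), also known as CTGF, had 1245, 1119 and 999 CPM in Usp5 knockout samples, 943, 962 and 959.5 CPM in Ythdf1 knockout samples and 414, 397 and 389.7 CPM in control samples. All knockout samples lay above all controls, and the lowest Usp5 knockout sample still lay above the highest Ythdf1 knockout sample. It rose 2.80-fold in Usp5 knockout (log2 1.49 ± 0.09, SE; adjusted p = 3.88e-06) and 2.39-fold in Ythdf1 knockout (1.25 ± 0.09; adjusted p = 7.87e-06, both edgeR quasi-likelihood), and both calls held in all 17 alternatives. Between Usp5 knockout and Ythdf1 knockout the difference was 0.23 ± 0.09 (95% interval 0.03 to 0.43; adjusted p = 0.0557, edgeR), and it passed in 5 of 17 alternatives.

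Ccn1 (ENSMUSG00000028195), also known as CYR61, followed the same course at a lower level. It had 282, 297 and 258 CPM in Usp5 knockout samples, 248, 251 and 256 CPM in Ythdf1 knockout samples and 164, 154 and 179.6 CPM in control samples. As with Ccn2, all knockout samples lay above the controls. The rise was 1.68-fold in Usp5 knockout (log2 0.75 ± 0.08, SE; adjusted p = 0.000197) and 1.52-fold in Ythdf1 knockout (0.60 ± 0.08; adjusted p = 0.00032, both edgeR quasi-likelihood), and both held in all 17 alternatives. The knockouts differed by 0.15 ± 0.08 (95% interval -0.04 to 0.34; adjusted p = 0.163, edgeR). Ccn2 made up 77.2% ± 1.47 of the TPM of all CCN genes in Usp5 knockout, 76.3% ± 0.200 in Ythdf1 knockout and 67.1% ± 2.08 in control samples (SD, n = 3 each).

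Some bile duct markers also differed in these comparisons. Of 7 tested, 5 were higher and 0 lower in Usp5 knockout, and 2 were higher and 1 lower in Ythdf1 knockout. That is 71.4% called in Usp5 knockout and 42.9% in Ythdf1 knockout, against 19.8% and 46.5% of all genes. All 8 listed markers summed to between 766 and 906 CPM in Usp5 knockout, 479.8 and 532 in Ythdf1 knockout and 516 and 609.9 in control samples. Epcam, an epithelial adhesion molecule, rose by 1.79 ± 0.09 in Usp5 knockout and by 1.49 ± 0.09 in Ythdf1 knockout (log2, SE; adjusted p = 1.51e-06 and 3.59e-06, edgeR), and Krt19, a keratin of bile ducts, by 2.28 ± 0.14 in Usp5 knockout and 0.53 ± 0.15 in Ythdf1 knockout (adjusted p = 3.88e-06 and 0.0147). Spp1, the gene of osteopontin, rose in Usp5 knockout by 0.42 ± 0.10 and fell in Ythdf1 knockout by 0.67 ± 0.10 (adjusted p = 0.0163 and 0.000509, edgeR). Cftr held 34 counts over all libraries. Of the hepatocyte markers, 2 of 8 were higher in Usp5 knockout (25%) and 7 of 8 in Ythdf1 knockout (87.5%), with none lower. Alb rose by 0.66 ± 0.13 and Hnf4a by 0.51 ± 0.07 in Usp5 knockout (adjusted p = 0.00479 and 0.000562, edgeR). In Ythdf1 knockout Serpina1a rose by 5.98 ± 0.65 and Ttr by 4.04 ± 0.53 (adjusted p = 7.85e-05 and 0.000219, edgeR). Both stayed low there, at 2.56 CPM for Serpina1a and 1.08 CPM for Ttr. The part of these differences in the values of Ccn1 and Ccn2 was not tested.

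**Figure D4:**
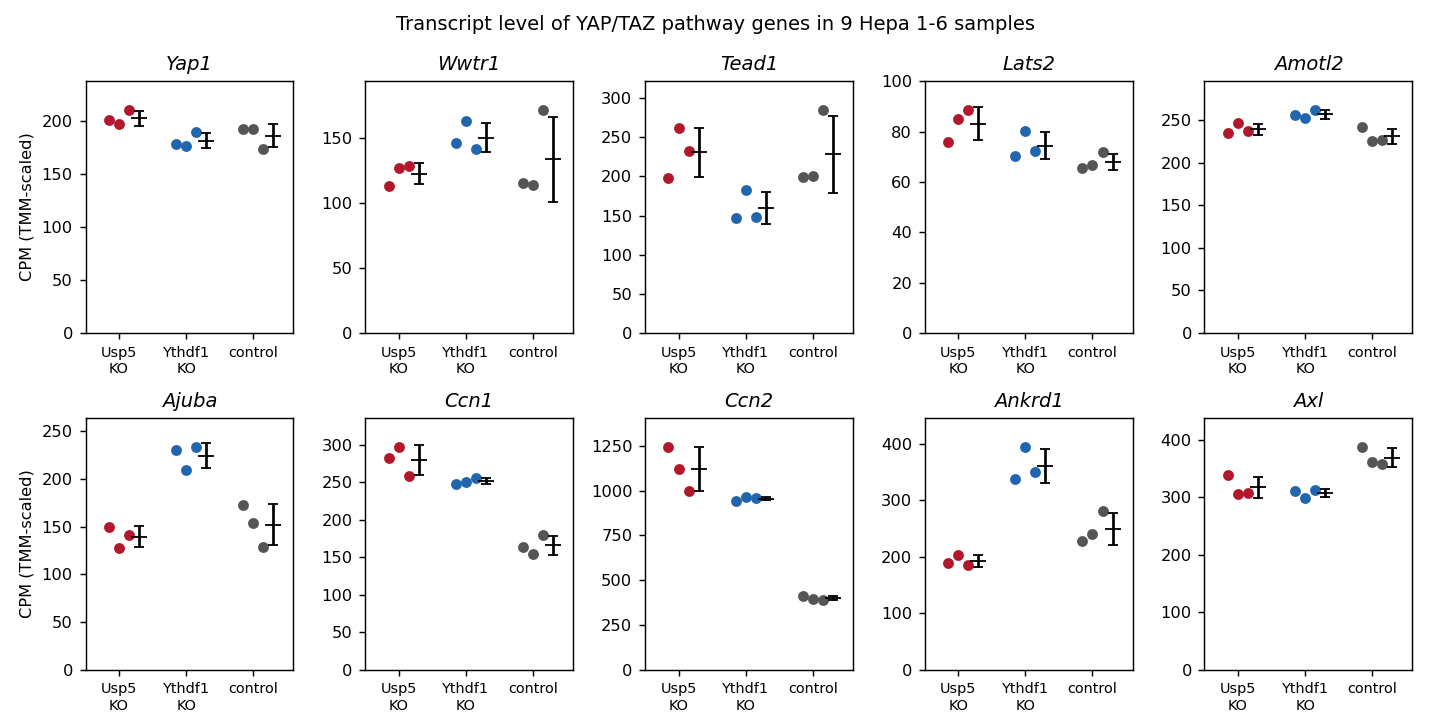
Each panel shows 1 gene, with its level in CPM (counts scaled to library size by TMM) on the vertical axis from 0, a dot for each of 3 samples in Usp5 knockout (KO, red), Ythdf1 knockout (blue) and control (grey), and a black bar for the mean ± SD. Ccn1 and Ccn2 lie above control in both knockouts, while Ankrd1 lies below control in Usp5 knockout (185 to 204 CPM) and above it in Ythdf1 knockout (338 to 395 CPM).

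Ankrd1 (ENSMUSG00000024803), a nuclear ankyrin repeat protein that is often measured beside Ccn1 and Ccn2, went in opposite directions in the knockouts. It had 189, 204 and 185 CPM in Usp5 knockout samples, 338, 395 and 350.2 CPM in Ythdf1 knockout samples and 227, 239.8 and 280.3 CPM in control samples. No group overlaps another. It fell by 0.37 ± 0.10 in Usp5 knockout (log2, SE; adjusted p = 0.0257) and rose by 0.53 ± 0.10 in Ythdf1 knockout (adjusted p = 0.00165, both edgeR quasi-likelihood). Tested directly, it was lower in Usp5 knockout than in Ythdf1 knockout, with a log2 difference of -0.91 ± 0.10 (adjusted p = 6.42e-05, edgeR), or 0.533-fold. The direct difference and the rise in Ythdf1 knockout held in all 17 alternatives. The fall in Usp5 knockout did not pass in 4 of 17: with only the 6 samples compared (adjusted p = 0.0512, edgeR), without control replicate 2 (0.0565), and without Usp5 knockout replicate 1 (0.0684) or 3 (0.0602).

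Axl (ENSMUSG00000002602), a receptor tyrosine kinase of the TAM family, had 338, 306 and 307 CPM in Usp5 knockout samples, 310.1, 299 and 313 CPM in Ythdf1 knockout samples and 388, 361 and 358 CPM in control samples. Both knockouts lay below the controls and overlapped each other. It fell by 0.26 ± 0.08 in Ythdf1 knockout (log2, SE; adjusted p = 0.0161, edgeR quasi-likelihood), and without control replicate 1 the value was -0.23 (adjusted p = 0.0599). In Usp5 knockout it was at -0.22 ± 0.08 (adjusted p = 0.069, edgeR) and passed in 4 of 17 alternatives. Axl held between 96.8% and 97.4% of the mean TPM of the 3 TAM receptors in every group. Gas6, the gene of its ligand, moved in opposite directions: it averaged 37.7 ± 1.5 CPM in Usp5 knockout, 126 ± 5.98 in Ythdf1 knockout and 90.9 ± 6.65 in control samples (SD, n = 3 each). That is a fall by 1.27 ± 0.08 in Usp5 knockout (log2, SE; adjusted p = 3.89e-06) and a rise by 0.47 ± 0.08 in Ythdf1 knockout (adjusted p = 0.000858, both edgeR). Of the other receptors, Tyro3 fell in Usp5 knockout (-0.76 ± 0.17, adjusted p = 0.00996) and Mertk rose there (0.45 ± 0.13, adjusted p = 0.037). Pros1, another TAM ligand, fell in Ythdf1 knockout (-0.27 ± 0.09, adjusted p = 0.0412, all edgeR) and was at -0.26 ± 0.09 in Usp5 knockout (adjusted p = 0.0824). The Mertk call was lost in several settings, among them library sizes alone, only the 6 samples compared, a replicate block, and without control replicate 1 or 2. The Pros1 call was lost with a replicate block, with GC and length trends removed, and without control replicate 1 or 2, among others.

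Between Usp5 knockout and Ythdf1 knockout, the members not yet compared did not pass the edgeR test. The log2 difference was 0.16 for Yap1 (95% interval -0.01 to 0.32; adjusted p = 0.105), -0.29 for Wwtr1 (-0.62 to 0.03; 0.123) and 0.16 for Lats2 (-0.03 to 0.35; 0.147). For Amotl2 it was -0.10 (-0.25 to 0.05; adjusted p = 0.252), and for Axl 0.05 (-0.12 to 0.21; adjusted p = 0.64). These intervals leave room for differences, as far as -0.62 for Wwtr1. The Wwtr1 difference passed in 3 of 17 alternatives: without control replicate 3 (-0.29, adjusted p = 0.0088, edgeR), with only the 6 samples compared (-0.29, adjusted p = 0.0188) and with GC and length trends removed (-0.58, adjusted p = 0.000875). Yap1, Lats2 and Axl passed in 1 alternative each, with adjusted p of 0.0463 (DESeq2), 0.0384 (edgeR, without Usp5 knockout replicate 1) and 0.0473 (edgeR, GC and length trends removed). Ccn1 passed in 2, with library sizes alone (0.21, adjusted p = 0.0403, edgeR) and with GC and length trends removed (0.30, adjusted p = 0.022).

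Levels of different members are compared per length, in TPM. In control samples the order was Ccn2 (338 ± 23.0), Axl (249.5 ± 18.8), Ankrd1 (248 ± 17.2), Ccn1 (165 ± 5.51), Amotl2 (126 ± 8.41), Yap1 (96.5 ± 9.76), Ajuba (92.6 ± 16.5), Wwtr1 (56.8 ± 11.1), Tead1 (53.7 ± 8.97) and Lats2 (28.2 ± 0.449), each in TPM as mean ± SD of 3. Axl and Ankrd1, Yap1 and Ajuba, and Wwtr1 and Tead1 are neighbours within their spread. Ccn2, Axl, Ankrd1, Ccn1 and Amotl2 averaged above both coactivators in every group. Ccn2 led in the knockouts too, at 868 ± 59.4 TPM in Usp5 knockout and 669 ± 16.8 in Ythdf1 knockout. Ccn1 came second in Usp5 knockout (255 ± 4.47 TPM) and Ankrd1 second in Ythdf1 knockout (299.7 ± 29.6 TPM). Wwtr1 held 33.3% ± 1.46 of the TPM of Yap1 and Wwtr1 in Usp5 knockout, 40.6% ± 2.57 in Ythdf1 knockout and 37.0% ± 6.87 in control samples.

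The other genes of the pathway were read as lists. Of 26 tested Hippo kinases and upstream regulators, 0 were higher and 3 lower in Usp5 knockout, and 3 were higher and 13 lower in Ythdf1 knockout, with medians of 0.01 and -0.24 on the log2 scale against -0.01 and 0.02 over all genes. The share called was 11.5% in Usp5 knockout and 61.5% in Ythdf1 knockout, against 19.8% and 46.5% of all genes. Mob1b and Mob1a, which encode activators of the LATS kinases, fell in both knockouts. Mob1b fell by 0.77 ± 0.13 in Usp5 knockout and 0.71 ± 0.13 in Ythdf1 knockout (SE; adjusted p = 0.00295 and 0.00172, edgeR), and Mob1a by 0.35 ± 0.11 in Usp5 knockout and 0.62 ± 0.11 in Ythdf1 knockout (adjusted p = 0.0447 and 0.00123). In Ythdf1 knockout Taok1, an upstream kinase gene, fell by 0.81 ± 0.14 (adjusted p = 0.000952, edgeR) and Sav1, the gene of the MST scaffold, by 0.74 ± 0.17 (adjusted p = 0.00482). Rassf1, the gene of an MST-binding tumour suppressor, rose there by 0.69 ± 0.12 (adjusted p = 0.00123, edgeR) and Strn4, a gene of the STRIPAK phosphatase complex, by 0.47 ± 0.11 (adjusted p = 0.00543). These splits shift with processing: with GC and length trends removed, 6 were higher and 9 lower in Ythdf1 knockout, and without control replicate 3, 4 were higher and 3 lower in Usp5 knockout. With only the 6 samples compared, with a replicate block, or without control replicate 1, just 1 was lower in Usp5 knockout. The same held without Usp5 knockout replicate 1 or 2, or without any 1 Ythdf1 knockout replicate. In these settings at most 1 of Mob1a and Mob1b was called in Usp5 knockout.

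Of 14 tested scaffolds that bind YAP or TAZ or sit at junctions, 2 were higher and 2 lower in Usp5 knockout, and 4 were higher and 0 lower in Ythdf1 knockout. That is 28.6% called in each, against 19.8% and 46.5% of all genes. Zyx, the gene of a focal adhesion LIM protein, rose in both, by 0.54 ± 0.12 in Usp5 knockout and 0.80 ± 0.12 in Ythdf1 knockout (log2, SE; adjusted p = 0.00996 and 0.000432, edgeR). Ptpn14, a phosphatase gene that is both a YAP inhibitor and a target, fell in Usp5 knockout by 1.41 ± 0.12 and rose in Ythdf1 knockout by 0.40 ± 0.12 (adjusted p = 3.93e-05 and 0.0161, edgeR). The angiomotin paralogs parted in Usp5 knockout, Amotl1 rising by 0.38 ± 0.07 and Amot falling by 0.37 ± 0.11 (adjusted p = 0.00453 and 0.0421, edgeR), and Crb3, a polarity gene, rose in Ythdf1 knockout by 0.90 ± 0.21 (adjusted p = 0.00537). The Ythdf1 knockout split was 7 higher and 1 lower with GC and length trends removed and 3 and 3 with library sizes alone. In Usp5 knockout just 1 was lower with a replicate block, without control replicate 1 or 2, or without any 1 Usp5 knockout replicate. In these settings at most 1 of Ptpn14 and Amot was called lower.

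Other reported targets were called in both directions. Of 13 further tested genes of a YAP/TAZ target signature, 3 were higher and 4 lower in Usp5 knockout, and 3 were higher and 6 lower in Ythdf1 knockout, with medians of -0.12 and 0.00381. The share called was 53.8% in Usp5 knockout and 69.2% in Ythdf1 knockout, against 19.8% and 46.5% of all genes. Igfbp3, which encodes a secreted binding protein of insulin-like growth factors, rose in both, by 1.01 ± 0.10 in Usp5 knockout and 0.63 ± 0.10 in Ythdf1 knockout (log2, SE; adjusted p = 0.00011 and 0.000809, edgeR). Nt5e, the gene of the ecto-enzyme CD73, fell in both, to 0.227 ± 0.174 CPM in Usp5 knockout and 0.467 ± 0.178 in Ythdf1 knockout, against 3.07 ± 0.0791 in control samples (SD, n = 3 each). On the log2 scale this was -3.66 ± 0.44 in Usp5 knockout and -2.71 ± 0.41 in Ythdf1 knockout (SE; adjusted p = 0.00031 and 0.00051, edgeR). Gadd45a, a stress-induced gene, rose in Ythdf1 knockout by 2.03 ± 0.12 (log2, SE; adjusted p = 2.89e-06, edgeR), and Dock5, a Rac activator gene, fell there by 0.88 ± 0.10 (adjusted p = 0.000114). Ccdc80, a matrix protein gene, rose in Usp5 knockout by 0.69 ± 0.10 and fell in Ythdf1 knockout by 0.29 ± 0.10 (adjusted p = 0.000851 and 0.0336, edgeR).

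A second list of 14 tested targets had 6 higher and 3 lower in Usp5 knockout, and 5 higher and 2 lower in Ythdf1 knockout, with medians of 0.07 and -0.07. The share called was 64.3% in Usp5 knockout and 50% in Ythdf1 knockout, against 19.8% and 46.5% of all genes. Thbs1, which encodes the matricellular thrombospondin, rose in both, by 1.32 ± 0.08 in Usp5 knockout and 0.92 ± 0.08 in Ythdf1 knockout (log2, SE; adjusted p = 3.88e-06 and 2.52e-05, edgeR). In Usp5 knockout Fgf1 rose by 1.03 ± 0.11 (adjusted p = 0.00014, edgeR) and Edn1, the gene of the vasoconstrictor endothelin, fell by 1.73 ± 0.14 (adjusted p = 2.44e-05). Areg, the gene of the EGF receptor ligand amphiregulin, also rose in both, by 0.99 ± 0.10 in Usp5 knockout and 2.14 ± 0.10 in Ythdf1 knockout (adjusted p = 0.000114 and 6.47e-07, edgeR). Inhba, an activin subunit gene, fell in Ythdf1 knockout by 1.53 ± 0.27 (adjusted p = 0.00121, edgeR) and was at -0.68 ± 0.25 in Usp5 knockout (adjusted p = 0.0847). Arhgap29 was lower in both, at -1.05 ± 0.23 in Usp5 knockout and -0.69 ± 0.23 in Ythdf1 knockout (adjusted p = 0.011 and 0.0324, edgeR).

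**Figure D5:**
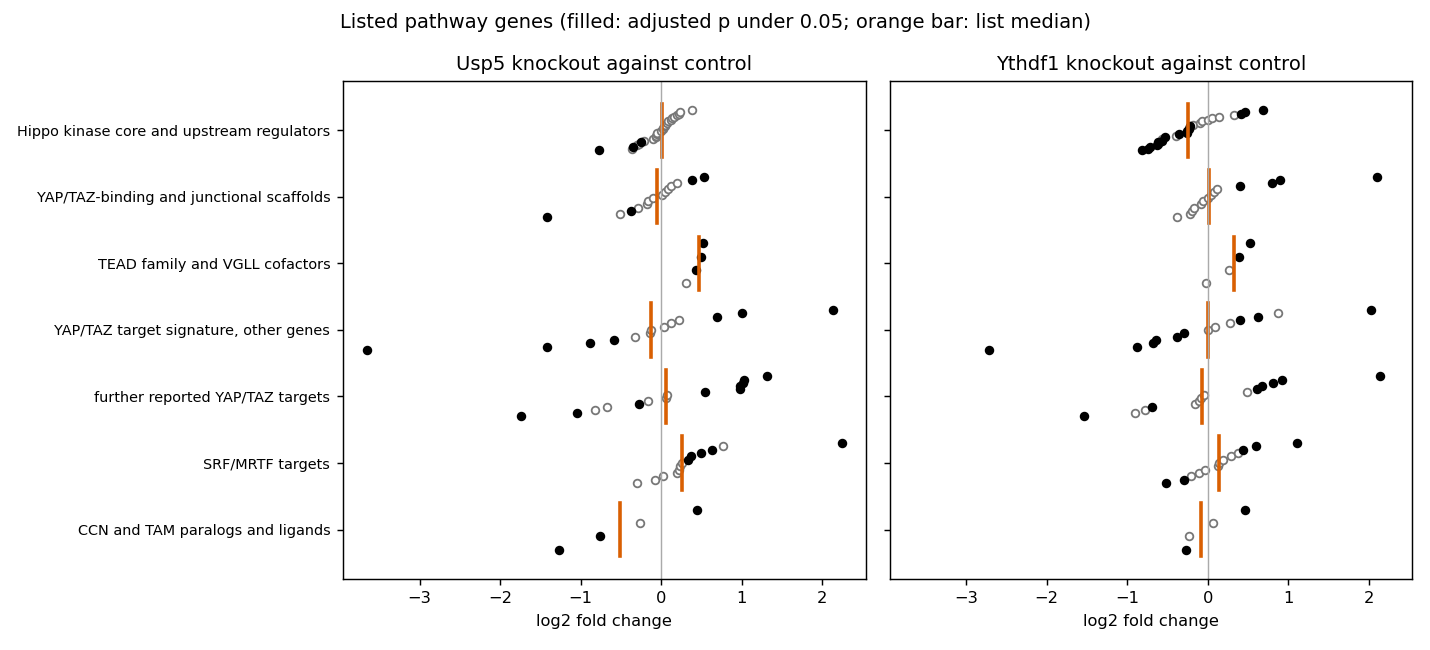
Every tested gene of 7 lists is a point at its log2 fold change (horizontal axis), filled where the adjusted p is under 0.05, with an orange bar at the list's median, for Usp5 knockout against control on the left and Ythdf1 knockout against control on the right. Called genes lie on both sides of 0 in both lists of other targets, and the median of the Hippo kinase list is -0.24 in Ythdf1 knockout.

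The genes most like Ccn1 and Ccn2 over the 9 libraries were found from 11754 genes with established symbols, by the root mean square difference of log2 CPM values centred on each gene's mean. For Ccn1, whose own values vary by 0.33 on that scale, the nearest were Sp5 (0.0474), Nckap5l (0.0756), Map4k1 (0.0835), Cdk18 (0.0849) and Aplp2 (0.0855). For Ccn2, whose values vary by 0.66, they were Ihh (0.14), Tmed6 (0.167), Foxq1 (0.168), Epcam (0.174) and Thbs1 (0.183). Within the set, the member nearest to Ccn2 was Ccn1, at 0.34, and the member nearest to Ccn1 was Lats2, at 0.24. This measure counts size as well as direction, and the values of Lats2 vary by 0.14, less than those of Ccn1 or Ccn2. Ajuba and Ankrd1 were each other's nearest members, at 0.24, and both were highest in Ythdf1 knockout.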

How the data were processed

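Poly(A) RNA of 9 samples was sequenced, and the authors deposited 1 table of estimated counts per gene, written as whole numbers, with a length and an effective length per gene. The submitters' processing notes name fastp 0.23.2, STAR 2.7.10a, Salmon 1.9.0 and GRCm39, without roles. The annotation and the use of strand are not given in the sources used here. Reads of overlapping genes and near-identical copies may therefore be shared. Each column was assigned by its sample's description, and each group by the sample's title.

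The test was the quasi-likelihood test of edgeR 4.0.16, run in R 4.3.3 on the deposited counts (TMM scaling, filterByExpr, glmQLFit and glmQLFTest with group as the only term over all 9 samples), with Benjamini-Hochberg adjustment over 13661 tested genes and calls at an adjusted p under 0.05. CPM values use TMM-scaled library sizes, and TPM values use the deposited lengths, are compared between genes within a sample, and give no test between groups. Values are means ± SD of 3 samples, and fold changes are log2 with their SE. The SE was taken as the absolute log2 fold change over the square root of the quasi-likelihood F, and the 95% intervals use it. The tests were tried on simulated data with known changes. Libraries held 24760877 to 42989715 counts, and the SD and SE include counting error. Promoter windows came from RefSeq on GRCm38.p6, matched by symbol, whereas the counts are on GRCm39.

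The members and gene lists were chosen with earlier results of these data known. Named genes are all members, both targeted genes, the TEAD and VGLL genes, from every list up to 2 called genes a direction, given a mean of 1 CPM or more in the higher group, and the 5 genes nearest to Ccn1 and to Ccn2. Mpp5 stood for the gene now named Pals1. A few further values, such as those of a named gene in the other knockout, were given after they had been seen. The alternatives tried were DESeq2 1.42.0, scaling by RLE or by library sizes alone, no filter, a filter of 1 CPM in 3 samples, a fit of the 6 samples compared, a replicate block, leaving out each sample, and, added after the data had been seen, removal of each library's trends on GC content and length, effective lengths for TPM, and leaving out samples for TPM shares.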

Additional observations from a re-analysis of the deposited data

How the results depend on the processing

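No alternative turned a called member round. The counts of members below stand without the share of all genes called in the same setting, and nothing particular to the members is read from them. In Usp5 knockout against control, 4 members were called, 1 of them lower. The lower count was 2 with library sizes alone, DESeq2, or GC and length trends removed, and with only the 6 samples compared 2 members were called and 0 lower. Leaving out 1 sample gave 2 to 5 called and 0 to 2 lower; 2 were called without control replicate 2 or Usp5 knockout replicate 3. In Ythdf1 knockout against control, 6 were called, and the lower count was 1 with GC and length trends removed and 1 to 2 without 1 sample. Between Usp5 knockout and Ythdf1 knockout, where 3 were called and 1 higher, the total was 5 with library sizes alone (3 higher), DESeq2 (3 higher) and GC and length trends removed (2 higher), RLE scaling gave 2 higher, and leaving out 1 sample gave 2 to 5 called, 5 of them without control replicate 3, and 0 to 2 higher. The Tead1 difference between the knockouts was then 0.46 without Usp5 knockout replicate 2 (adjusted p = 0.059, edgeR) and 0.23 with GC and length trends removed (adjusted p = 0.12, edgeR). The cause was not tested. Library sizes alone moved the median of all genes to -0.10, -0.12 and 0.06, and the share of calls that were higher to 35.9%, 34.0% and 56.1%, against 50.4%, 50.9% and 48.1%, in Usp5 knockout against control, Ythdf1 knockout against control and between the knockouts. Same-numbered samples did not pair: their deviations correlated between -0.257 and 0.298, over 0.1 in 4 of 9 pairs, and a sample was nearest to its own number in 7 of 18 tries. With the replicate block 4, 6 and 3 members were called in the same 3 comparisons. With effective lengths, the share of Wwtr1 was 38.3% in Usp5 knockout and 45.8% in Ythdf1 knockout, that of Ccn2 78.9% and 78.0% there, that of Tead1 24.2% in Usp5 knockout, 18.5% in Ythdf1 knockout and 28.7% in control samples, and that of Lats2 50.3%, 53.3% and 44.6% in these groups. The lowest count of any member in a library was 1783.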

Other observations

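Targets of SRF and its cofactor MRTF, which respond to actin and share some genes with YAP and TAZ, were read as a further list. Of 13 tested, 5 were higher and 0 lower in Usp5 knockout, and 3 were higher and 2 lower in Ythdf1 knockout, or 38.5% called in each, where 19.8% and 46.5% of all genes were called. The list's median was 0.26 in Usp5 knockout and 0.14 in Ythdf1 knockout (log2), against -0.01 and 0.02 over all genes. Tpm2, which encodes a tropomyosin, rose in Usp5 knockout by 2.25 ± 0.18 (SE; adjusted p = 1.85e-05, edgeR), though only to 5.45 ± 0.767 CPM, against 1.14 ± 0.0957 CPM in control samples (SD, n = 3 each). Srf itself rose in both, by 0.64 ± 0.11 in Usp5 knockout and 0.44 ± 0.11 in Ythdf1 knockout (adjusted p = 0.00234 and 0.00653, edgeR). In Ythdf1 knockout Fhl2, the gene of a LIM cofactor, rose by 1.11 ± 0.24 (adjusted p = 0.00358, edgeR) and Tagln2, the gene of an actin-binding protein, by 0.61 ± 0.12 (adjusted p = 0.00203). Vcl, which encodes vinculin at focal adhesions, fell in Ythdf1 knockout by 0.52 ± 0.07 (adjusted p = 0.000309, edgeR), and the tropomyosin gene Tpm4 rose in Usp5 knockout by 0.37 ± 0.07 and fell in Ythdf1 knockout by 0.29 ± 0.07 (adjusted p = 0.00661 and 0.00854). With GC and length trends removed, the split was 7 higher and 0 lower in Usp5 knockout and 1 higher and 4 lower in Ythdf1 knockout.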
